A study of Mus musculus with 31 samples.

Results

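The whole-brain transcriptome of serum-injected control mice was compared between 18 to 24 h and 1 to 1.5 h after injection. The late arm held the 2 mice taken at 18 h and the 2 taken at 24 h, and the early arm the 3 mice taken at 1 h and the 3 taken at 1.5 h, chosen by treatment and time in the sample titles: 10 of the 31 arrays of the series. All 10 were female C57Bl/6J mice aged 6 weeks that had been anaesthetised with xylazine and ketamine and had received 200 µl of physiological serum into the tail vein. Both arms thus carry the anaesthesia, the injection and the serum, and no uninjected mouse is among the 31 arrays. The series set such controls against mice given the same volume with oleic acid (1.2 µl for each g the mouse weighed), a lipid that injures the lung, at 1, 1.5, 3, 4, 18 and 24 h. One Agilent Cy3 array was hybridised per mouse from 200 ng of RNA, and the labels name no pooling of animals. The clock hour of the injections is not given in the sources used here.

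After a handling event the brain passes through known waves of transcription. Immediate early genes such as Fos and Npas4 follow neuronal activity, glucocorticoid receptor targets such as Sgk1 follow the adrenal stress hormone, chaperone genes follow protein folding load and temperature, and the circadian clock moves its own set of genes through each day. Mice 18 to 24 h and 1 to 1.5 h after an injection under anaesthesia can differ in all of these, and elapsed time, clock hour and recovery from anaesthesia cannot be told apart in this design.

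Levels are log2 Cy3 signals from which the 75th percentile of the same array was subtracted, and differences are late minus early in log2 units with limma's standard error (±). A gene passed at a Benjamini-Hochberg adjusted p under 0.05 over 25173 genes in limma, fitted to all 31 arrays. In the early arm the median level of 15 neuron markers was 5.32 and of 15 oligodendrocyte markers 4.38, against -2.38 for 20 liver genes and -1.30 for 7 lung genes, with late medians of 5.17, 4.43, -3.04 and -1.70. Dissection varied between mice of both arms: the mean level of 12 cerebellar genes ran from -2.06 to 2.21 in the early arm and from -1.16 to 1.74 in the late arm. The 20 liver genes averaged 0.09 in serum 1 h replicate 2 and at most -2.07 in the other 9 mice. Serum 24 h replicate 2 stood apart with a mean of 2.93 for 6 pituitary genes, where the other 9 arrays lay at or below -2.74.

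Slide followed time in part. Of the early arrays 5 were on slide 1 and 1 on slide 2, and of the late arrays 2 were on slide 4, 1 on slide 5 and 1 on slide 2, the only slide with both arms and the only one with a scan date of its own. Of 25173 genes, 1204 (4.78%) passed, 636 higher late (2.53%) and 568 lower late (2.26%), and 5574 (22.1%) had an unadjusted p under 0.05. With slide as a random block 64 genes passed (0.254%), and with slide as a fixed block 17 passed (0.0675%), none of which was among the 1204 in the same direction, while 586 of the 636 and 566 of the 568 kept their sign. With 5 of the 6 early arrays and no late array on slide 1, slide and time cannot be told apart for the genes that pass without the block and miss with it.

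Single arrays also moved the counts. Without serum 18 h replicate 1, 99 genes passed higher and 113 lower, and without serum 24 h replicate 1, 132 and 111 passed. The counts were 221 and 205 without serum 1.5 h replicate 2, 332 and 315 without serum 18 h replicate 2, 324 and 328 without serum 1 h replicate 2, and 364 and 316 without serum 1 h replicate 1. Without serum 1.5 h replicate 3, the 1 early array on slide 2, 1356 passed higher and 629 lower. Leaving out both serum 1 h replicate 1 (low in cerebellar genes) and serum 24 h replicate 2 (high in pituitary genes) gave 319 and 284.

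The genes that passed as higher late were dimmer than those that passed as lower. Their median level over the arms was -2.05, against -0.45 for the genes that passed as lower and -0.64 for all genes tested, and 39.5%, 17.8% and 26.2% of the respective genes lay below a level of -3. The median fold was 1.55 for the 636 and 1.66 for the 568, and 168 and 156 of them differed by more than 2-fold. Above-background signal on all 10 arrays was found for 476 and 507, while 46 of the genes higher late were well above background on no early array and 19 of the genes lower late on no late array. The values of the arms did not overlap for 331 of the 636 and 362 of the 568. Over all genes tested the late arm lay wholly above the early arm in 3.63% and wholly below it in 2.83%, or 6.47% in all.

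**Figure D1:**
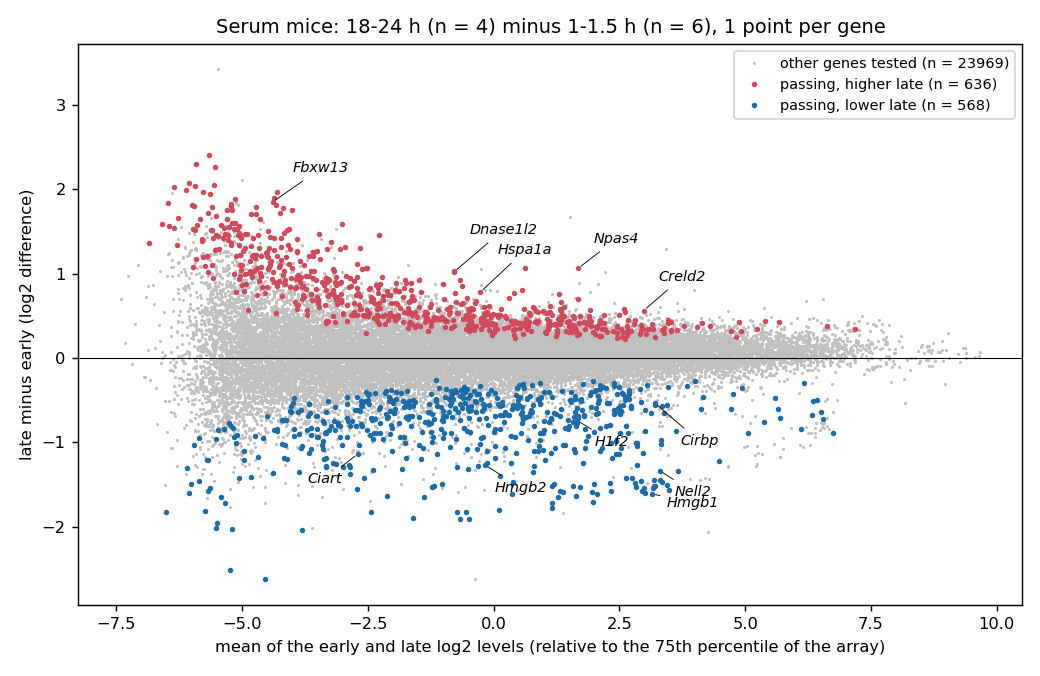
Late minus early difference in serum mice (log2) against the mean of the early and late levels (log2, relative to the 75th percentile of the array), 1 point per gene, with the 636 genes that passed as higher in red and the 568 that passed as lower in blue. The largest rises lie at low levels, whereas Hmgb1, Nell2 and other large falls reach the well-measured range.

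Hmgb2 and H1f2, which encode chromatin proteins, had the smallest adjusted p among the genes named here, and both were lower late. Hmgb2, a DNA-bending high-mobility-group protein of dividing and progenitor cells, was 0.29, 0.47 and 0.18 in the 3 mice at 1 h and 0.62, 0.69 and 0.48 in the 3 at 1.5 h, against -0.68 and -0.72 in the mice at 18 h and -0.90 and -0.95 in those at 24 h. All 4 late mice lay below all 6 early ones, a difference of -1.26 ± 0.11 (2.40-fold lower, adjusted p = 3.03e-06 in limma). Its probe lies at chr8:59992929-59992988 of mm9, on the plus strand. H1f2, a linker histone that compacts chromatin, was 2.08, 2.13 and 1.83 at 1 h, 1.89, 2.20 and 2.03 at 1.5 h, 1.13 and 1.30 at 18 h and 1.43 and 1.29 at 24 h. Again the arms were apart, by -0.74 ± 0.09 (adjusted p = 2.52e-04), at a probe at chr13:23832018-23832077 of mm9, plus strand. Psip1, a chromatin reader at transcribed genes, was lower by less (-0.45 ± 0.07, adjusted p = 3.08e-03), and 1 of its 2 probes did not share the direction.

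Hmgb1, the abundant relative of Hmgb2, fell further than Hmgb2 but was less even within the late arm. Its levels were 4.04, 3.95 and 4.06 at 1 h, 3.45, 4.47 and 3.74 at 1.5 h, 1.74 and 1.94 at 18 h, and 2.87 and 2.82 at 24 h. The arms did not overlap, and the difference was -1.61 ± 0.28 (3.05-fold lower, adjusted p = 4.16e-03). All 7 of its probes were lower late, by 0.10 to 1.61, so the size depends on the probe, and Hmgb1-ps7, annotated as a pseudogene copy, whose signal cannot be separated from that of Hmgb1 with certainty, gave -1.62 ± 0.33. Nell2, a secreted neuronal glycoprotein, and Ptn, the growth factor pleiotrophin, followed the same shape. Nell2 averaged 3.97 early, 2.21 at 18 h and 3.06 at 24 h (-1.34 ± 0.22, adjusted p = 2.77e-03), and Ptn 5.08, 3.41 and 4.32 (-1.22 ± 0.22, adjusted p = 4.54e-03). The other probe of Ptn differed by less (-0.38).

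With slide as a random block Hmgb2 (adjusted p = 1.50e-04), H1f2 (7.33e-03), Nell2 (0.037) and Psip1 (0.044) still passed and Hmgb1 did not (0.053). With slide as a fixed block, in which the standard error of Hmgb2 rose from 0.11 to 0.27, the differences were -1.18 for Hmgb2, -0.75 for H1f2 and -1.04 for Hmgb1, and no call was kept (adjusted p = 0.30, 0.75 and 0.99). On slide 2 the late mouse lay below the early mouse by 1.43 for Hmgb2, 0.73 for H1f2 and 0.92 for Hmgb1. On slide 4, which held both serum mice of 4 h and both of 18 h, Hmgb2 was 0.30 and 0.74 at 4 h and -0.68 and -0.72 at 18 h, and H1f2 was 1.98 and 2.32 against 1.13 and 1.30, in each case with the 18 h mice below the 4 h mice of the same slide. Hmgb1, Nell2 and Ptn averaged 2.83, 2.97 and 4.11 in the 4 h mice of that slide and 1.84, 2.21 and 3.41 at 18 h. Their 4 h means were already below their early means of 3.95, 3.97 and 5.08. They were near their 24 h means of 2.85, 3.06 and 4.32. The within-slide values rest on 1 mouse against 1 and 2 against 2 and have no test of their own.

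**Figure D2:**
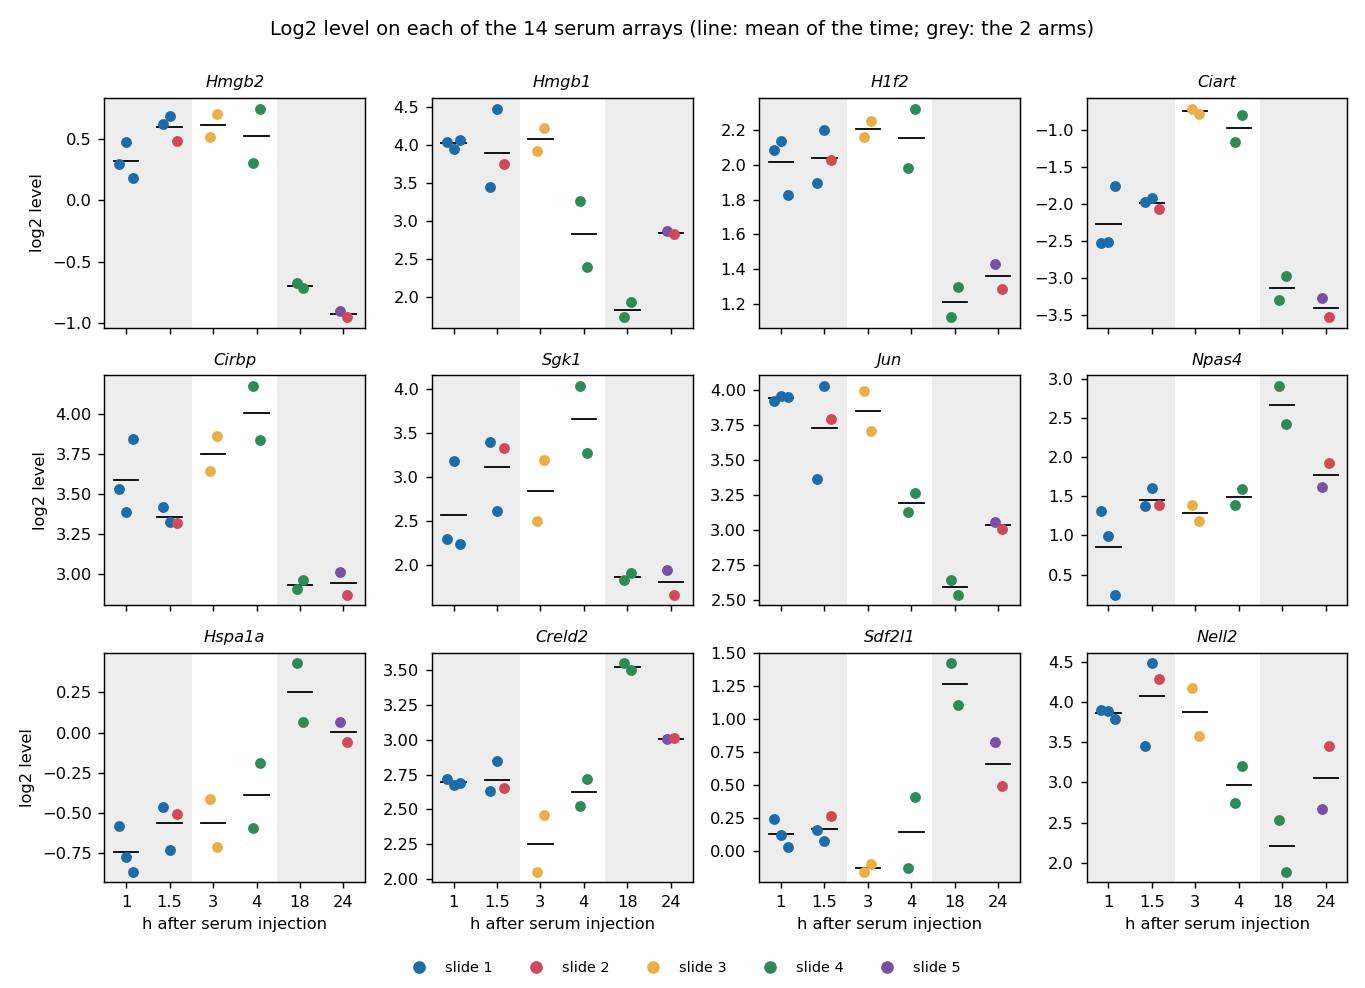
Log2 level of 12 genes on each of the 14 serum arrays by hours after injection, coloured by slide, with black lines for the mean of each time and grey bands for the early and late arms. For Hmgb2 and H1f2 the 18 h and 4 h mice of slide 4 are apart, and Ciart is highest at 3 and 4 h. For Hmgb1 and Nell2 the 4 h mice already lie below the early ones.

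Among genes of the circadian clock, 1 of 12 members of the core loop and 2 of 9 output genes passed, all lower late, where 2.26% of all genes passed as lower. One of them was Ciart, a repressor of the CLOCK and BMAL1 activators. It was -2.53, -2.51 and -1.76 at 1 h, -1.98, -1.92 and -2.06 at 1.5 h, -3.30 and -2.97 at 18 h, and -3.26 and -3.53 at 24 h. Every late value was below every early one (-1.14 ± 0.19, 2.20-fold lower, adjusted p = 3.08e-03 and 0.044 with slide as a random block). The serum mice between the arms were higher than both, with means of -0.75 at 3 h and -0.98 at 4 h. Rora, a nuclear receptor that activates Bmal1, was lower by 0.66 on the log2 scale (-0.66 ± 0.16, adjusted p = 0.023), and Usp2, a deubiquitinase under clock control, by less and with overlapping arms (-0.35 ± 0.10, adjusted p = 0.043). Without single arrays the call of Usp2 was lost in 9 of 10 fits (adjusted p up to 0.21) and that of Rora in 4 (up to 0.13), and with slide as a random block neither passed (0.18 and 0.19). The other loop genes did not pass: Per2 differed by 0.57 ± 0.18 (adjusted p = 0.069) and Nr1d1 by -0.51 ± 0.32 (0.35). Arntl differed by 0.24 ± 0.11 (0.21), Per1 by -0.17 ± 0.17 (0.60) and the output gene Dbp by -0.19 ± 0.16 (0.51). The medians were -0.004 over the loop and -0.02 over the output genes, against 0.04 over all genes tested.

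The 250 bases before the start of Ciart hold 3 copies of the E-box CACGTG, the element bound by CLOCK and BMAL1, here in capitals (RefSeq, GRCm38.p6, chr3:95882229-95882478, minus strand).
Ciart: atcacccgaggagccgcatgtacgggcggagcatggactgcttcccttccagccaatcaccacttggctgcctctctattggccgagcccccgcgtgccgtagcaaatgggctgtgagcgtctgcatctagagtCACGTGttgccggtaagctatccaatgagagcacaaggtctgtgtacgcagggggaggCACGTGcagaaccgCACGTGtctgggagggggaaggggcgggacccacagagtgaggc
The motif starts at -116, -58 and -44 from the start of transcription.

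Of 30 glucocorticoid receptor targets 4 passed, all lower (2.26% of all genes did), with a list median of -0.19 against 0.04 over all genes tested. Sgk1, a kinase induced by the receptor, was 2.30, 3.19 and 2.24 at 1 h, 3.40, 2.62 and 3.33 at 1.5 h, 1.83 and 1.91 at 18 h, and 1.95 and 1.67 at 24 h. The late mice were close together and below the spread-out early ones (-1.01 ± 0.27, 2.01-fold lower, adjusted p = 0.033). The call was lost without serum 1 h replicate 2, serum 1.5 h replicate 1 or any 1 of the 4 late arrays (adjusted p up to 0.14). Arrdc3, an arrestin-domain adaptor, was lower by 0.89 on the log2 scale (-0.89 ± 0.17, adjusted p = 6.22e-03). Klf9, a stress-responsive transcription factor, was -0.57 ± 0.10 (4.20e-03, and 0.044 with slide as a random block), and Nfkbia, the inhibitor of NF-kB, was -0.65 ± 0.17 (0.029) with overlapping arms. Sgk1 (0.16), Arrdc3 (0.074) and Nfkbia (0.14) did not pass with slide as a random block. The call of Nfkbia was lost without serum 1 h replicate 2, either 18 h array or serum 24 h replicate 2. The receptor co-chaperone Fkbp5 (-0.09 ± 0.20, adjusted p = 0.83), Tsc22d3 (-0.44 ± 0.19, 0.17), which encodes GILZ, and Txnip (-0.41 ± 0.20, 0.24) did not pass. In the serum mice between the arms Sgk1 was 2.50 and 3.20 at 3 h and 4.04 and 3.28 at 4 h. Tsc22d3 was 2.94 and 3.44 at 3 h and 4.37 and 3.26 at 4 h. For both genes only serum 4 h replicate 1 lay above the early range, and replicate 2 lay within it. Mt2, a metal-binding metallothionein that glucocorticoids also induce, averaged 6.59 early and 6.09 late (-0.51 ± 0.14, adjusted p = 0.042), a call lost without any 1 of 8 of the 10 arrays.

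The window before Sgk1 (chr10:21993640-21993889, plus strand) holds the glucocorticoid response element, AGAACA and TGTTCT with 3 bases between, at -189 and an E-box at -246, both in capitals.
Sgk1: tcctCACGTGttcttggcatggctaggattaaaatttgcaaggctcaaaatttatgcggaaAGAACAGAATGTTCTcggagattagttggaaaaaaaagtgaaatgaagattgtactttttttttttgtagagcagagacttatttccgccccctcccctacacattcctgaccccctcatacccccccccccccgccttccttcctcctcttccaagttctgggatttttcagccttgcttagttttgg
In the whole table of 32851 windows, from 250 bases before to 50 after each start, this response element was found in 3 (0.00913%), and the E-box in 2349 (7.15%). Of the 61 passing genes that the naming rule selects for serum late against early, 44 had a window: 3 held an E-box (Hmgb1, Ciart and Sgk1), 2 the cyclic AMP element TGACGTCA (Hdx and Gpr6; 1.79% of all windows) and 1 the response element (Sgk1). None of the 44 held the D-box letters TTATGTAA or TTACGTAA (1.06%), the ROR element, AANT followed by AGGTCA (0.219%), or the heat shock element, GAA, TTC and GAA with 2 bases between each (0.603%). Both strands were searched. Such matches describe letters in a window and no binding.

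Of 34 immediate early genes, 2 passed as higher and 4 as lower late, where 2.53% and 2.26% of all genes did, and the list median was -0.03 against 0.04 over all genes tested. None of the 6 passed with slide as a random block (adjusted p = 0.056 for Jun to 0.20 for Maff). Npas4, an activity-dependent transcription factor of neurons, was 1.31, 0.99 and 0.25 at 1 h, 1.37, 1.60 and 1.39 at 1.5 h, 2.91 and 2.42 at 18 h, and 1.61 and 1.92 at 24 h. The 18 h mice were highest and the arms just missed each other (1.06 ± 0.20, 2.09-fold higher, adjusted p = 6.36e-03, and 0.056 without serum 18 h replicate 1). Ier5, a regulator of heat shock factor 1, was higher by 0.76 ± 0.19 (adjusted p = 0.026), and its other probe by 0.31. The call was lost without serum 1 h replicate 2, serum 1.5 h replicate 2, serum 18 h replicate 1 or serum 24 h replicate 1.

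Jun, a subunit of the AP-1 factor, moved the other way. It was 3.92, 3.96 and 3.95 at 1 h, 3.37, 4.03 and 3.79 at 1.5 h, 2.64 and 2.54 at 18 h, and 3.06 and 3.01 at 24 h, with no overlap (-1.02 ± 0.19, adjusted p = 4.91e-03). Ccn1 (also Cyr61), a matrix protein, averaged 0.49 early and -0.76 late (-1.25 ± 0.26, adjusted p = 0.011). Its call was lost without serum 18 h replicate 2 or serum 24 h replicate 2. Klf4, a zinc-finger factor of endothelium among other cells (-0.55 ± 0.14, 0.030), and Maff, a small bZIP factor (-0.91 ± 0.26, 0.044), passed with overlapping arms and lost their call without any 1 of 6 and of 9 arrays. The best known members did not pass: Fos differed by -0.36 ± 0.25 (adjusted p = 0.41), Arc by 0.65 ± 0.37 (0.32), Egr1 by 0.23 ± 0.20 (0.53) and Dusp1 by -0.60 ± 0.19 (0.073). Arc was 5.43 in serum 18 h replicate 1, against 3.40 to 3.56 in the other late mice.

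Klf4 and Maff, which lie outside the naming rule and that tally and were chosen after their values were seen, complete the set of 4 called clock, glucocorticoid or immediate early genes, of 13 with a window, in which a searched motif was found. Klf4 (chr4:55532476-55532725, minus strand) has an E-box at -182, and Maff (chr15:79347270-79347519, plus strand) an E-box at -191 and the cyclic AMP element at -29.
Klf4: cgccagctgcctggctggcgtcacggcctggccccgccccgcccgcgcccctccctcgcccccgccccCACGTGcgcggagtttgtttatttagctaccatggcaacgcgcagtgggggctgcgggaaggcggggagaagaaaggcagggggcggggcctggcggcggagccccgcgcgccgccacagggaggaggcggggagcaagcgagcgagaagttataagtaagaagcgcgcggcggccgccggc
Maff: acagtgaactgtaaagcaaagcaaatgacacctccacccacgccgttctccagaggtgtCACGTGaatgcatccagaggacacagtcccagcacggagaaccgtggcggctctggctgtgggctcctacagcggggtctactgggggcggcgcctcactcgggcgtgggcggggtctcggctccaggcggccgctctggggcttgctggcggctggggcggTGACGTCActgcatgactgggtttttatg

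Of the chaperone genes, those that passed were higher late. Of 19 genes of the endoplasmic reticulum unfolded protein response 3 passed, all higher late, and the list median was 0.20. Of 19 cytosolic heat shock chaperones 2 passed, both higher, with a median of 0.17. Over all genes 2.53% passed as higher and the median was 0.04. None of these 5 passed with slide as a random block (adjusted p = 0.054 for Hspa1a to 0.21 for Fkbp4). Creld2, a disulfide isomerase of the reticulum, was 2.72, 2.68 and 2.69 at 1 h, 2.63, 2.85 and 2.65 at 1.5 h, 3.55 and 3.50 at 18 h, and 3.00 and 3.01 at 24 h. The arms were apart, with the 18 h mice highest (0.56 ± 0.10, 1.48-fold, adjusted p = 5.01e-03), and the call held without each of the 10 arrays in turn. It was lost with scaling to the median, with the 10 serum arrays alone, with slide as a fixed or random block (0.059 with the latter) and with 24 h alone as the late arm, and its fold is below 1.5. Sdf2l1, a component of the reticulum's chaperone complex, averaged 0.15 early, 1.27 at 18 h and 0.66 at 24 h (0.81 ± 0.18, adjusted p = 0.014), and Manf, a secreted reticulum stress factor, 1.33, 2.03 and 1.63 (0.50 ± 0.12, 0.025). The call of Sdf2l1 was lost without serum 18 h replicate 1 or serum 24 h replicate 1 and that of Manf without any 1 of 7 arrays. Hspa5, the master chaperone BiP of the same response, did not pass (0.21 ± 0.13, adjusted p = 0.38).

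Hspa1a, the inducible HSP70, was -0.58, -0.78 and -0.87 at 1 h, -0.46, -0.73 and -0.51 at 1.5 h, 0.43 and 0.07 at 18 h, and 0.07 and -0.06 at 24 h. All late mice were above all early ones (0.78 ± 0.14, 1.72-fold, adjusted p = 4.16e-03), and the call held without each array in turn. Fkbp4, an HSP90 co-chaperone of steroid receptors, rose by 0.39 ± 0.11 (adjusted p = 0.0498), a call lost without any 1 of 9 arrays.

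Cirbp, a cold-inducible RNA-binding protein whose transcript follows body temperature inversely, fell. It was 3.53, 3.39 and 3.84 at 1 h, 3.41, 3.32 and 3.32 at 1.5 h, 2.90 and 2.96 at 18 h, and 3.01 and 2.87 at 24 h, with means of 3.75 at 3 h and 4.00 at 4 h in between. The 4 late mice lay together below all early ones (-0.53 ± 0.09, 1.45-fold lower, adjusted p = 3.08e-03), and the call held with slide as a random block (0.044) and without each array in turn. On slide 4 Cirbp was 4.17 and 3.83 at 4 h and 2.90 and 2.96 at 18 h. Its relative Rbm3 did not pass (-0.21 ± 0.11, adjusted p = 0.26), and only 2 of the 3 Rbm3 probes shared that direction, the highest giving 0.71. Chosen after their values were seen, Clk1, a kinase of splicing factors (0.75 ± 0.17, adjusted p = 0.016), and Srsf6, a splicing factor (0.46 ± 0.09, 9.32e-03), were higher late. Both calls were lost without serum 18 h replicate 1 or serum 24 h replicate 1, and 1 of the 2 Srsf6 probes did not share its direction. No body temperature is among the data used here.

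**Figure D3:**
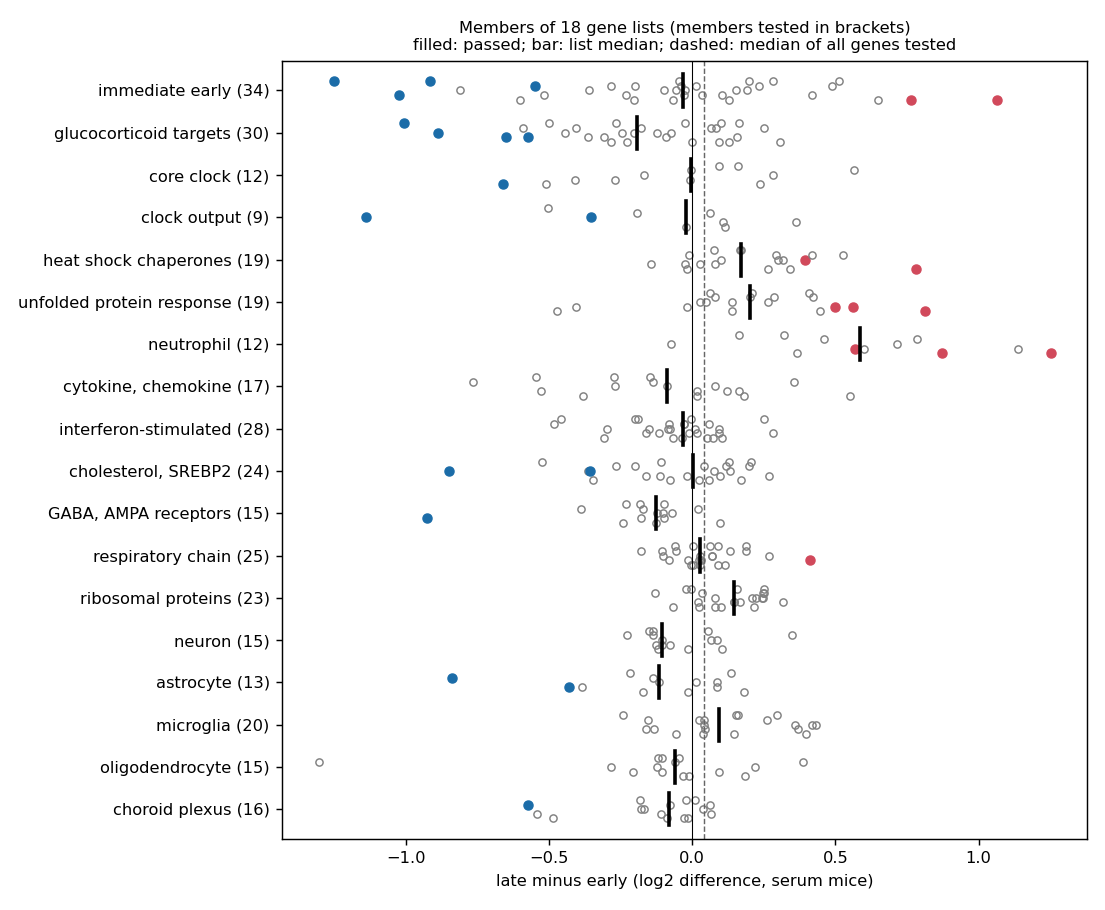
Late minus early difference (log2) of each measured member of 18 gene lists in serum mice, with filled points for members that passed, black bars for list medians and a dashed line for the median of all genes tested (0.04). The passing members of the unfolded protein response, heat shock and neutrophil lists lie to the right, and those of the glucocorticoid and clock lists to the left.

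Of 12 measured neutrophil genes, most of them granule proteins, 3 passed, all higher (2.53% of all genes did), and the list median was 0.58 against 0.04 over all genes tested. Ltf, lactoferrin, was -3.97, -3.77 and -3.02 at 1 h and -5.03, -4.71 and -4.76 at 1.5 h, against -1.42 and -2.55 at 18 h and -3.87 and -3.99 at 24 h. The 18 h mice were above all others and the 24 h mice inside the early range (1.25 ± 0.35, adjusted p = 0.044, lost without any 1 of 7 arrays). Camp, the antimicrobial peptide cathelicidin (0.87 ± 0.22, 0.029), and Mmp9, gelatinase B (0.57 ± 0.14, 0.028), also passed with overlapping arms, and lost their calls without any 1 of 5 and of 7 arrays. None of the 3 passed with slide as a random block (adjusted p = 0.25 for Ltf, 0.23 for Camp and 0.14 for Mmp9). Ltf and Mmp9 also lost the call with scaling to the median, quantile normalization, normexp correction and the values deposited by the authors. Camp lost it with scaling to the median and kept it with the other settings just named. Mmp9 was dim, with means of -5.16 early and -4.59 late, and was well above background on only 4 early and 3 late arrays. In whole-brain RNA more cells of a type and more RNA per cell cannot be told apart. The mean level of 10 erythroid genes, a sign of blood left in the tissue, ran from 1.77 to 2.68 early and from 1.89 to 2.55 late. Serum 18 h replicate 1 had the highest mean of the neutrophil genes (-0.79) and the highest erythroid mean of the late arm (2.55). A part of residual blood in the neutrophil values was not tested. None of 17 cytokine, chemokine and NF-kB feedback genes passed (Il1b -0.38 ± 0.24, adjusted p = 0.35, and Ccl2 -0.77 ± 0.38, 0.24). Nor did any of 28 interferon-stimulated genes, where 4.78% of all genes passed.

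None of the neuron, microglia, oligodendrocyte or endothelial markers passed, where 4.78% of all genes did. At that share lists this short may hold none. The list medians were -0.11 for 15 neuron, -0.11 for 13 astrocyte, 0.10 for 20 microglia, -0.06 for 15 oligodendrocyte and 0.06 for 17 endothelial markers. The median of all genes tested was 0.04. Single members passed. Aqp4, the water channel of astrocyte endfeet, was lower late by 0.84 on the log2 scale (-0.84 ± 0.24, adjusted p = 0.046), as was Gja1, the astrocyte connexin 43 (-0.43 ± 0.11, 0.031). Also lower were Gabra2, a GABA receptor subunit (-0.92 ± 0.24, 0.032), Dcn, the fibroblast proteoglycan decorin (-0.56 ± 0.14, 0.026), and Otx2, a homeobox factor of the choroid plexus (-0.57 ± 0.15, 0.033). Gpr17, a receptor of oligodendrocyte precursors (0.45 ± 0.12, 0.031), Gpr6, a receptor of striatal neurons (0.52 ± 0.13, 0.030), Doc2g, a C2-domain protein of the olfactory bulb (0.47 ± 0.09, 7.86e-03), and Lhb, the beta subunit of luteinising hormone (1.42 ± 0.39, 0.037), were higher. Lhb was highest in serum 24 h replicate 2, at -2.18, where the pituitary genes stood apart, and its call was lost without that array. All of these calls were lost without at least 1 of the 10 arrays, from 1 array for Doc2g to 8 for Aqp4, Otx2, Gpr6 and Lhb. None of these genes passed with slide as a random block (adjusted p = 0.087 for Doc2g to 0.29 for Aqp4). Aqp4 also lost the call with quantile normalization and with the mean of its probes.

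Stard4, a sterol carrier of the cholesterol list, was lower late (-0.85 ± 0.23, adjusted p = 0.037), a call lost without any 1 of 7 arrays. The nuclear noncoding RNA Malat1 was lower late (-0.68 ± 0.16, 0.023) with overlapping arms, and its call was lost without any 1 of 6 arrays (adjusted p up to 0.097). Of the 6 nuclear noncoding RNAs tested, 5 were higher late and only Malat1 lower, with a list median of 0.21. Neither Stard4 (adjusted p = 0.24) nor Malat1 (0.12) passed with slide as a random block. None of the 23 ribosomal protein, 21 hypoxia, 19 NRF2 antioxidant, 17 fatty acid oxidation or 10 NMDA and alpha-2 adrenergic receptor genes, the last the targets of the anaesthetics, passed. Of all genes 4.78% passed, a share at which lists this short may hold none.

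The largest rises and falls by size included many dim probes. The rises were led by Fbxw13, an F-box gene (1.85 ± 0.42, adjusted p = 0.016), which was well above background on 3 of 6 early and all 4 late arrays. Zfp112, Spaar and Vmn1r56 were above background on all 4 late and no early array, and were at least 2.27-fold, 2.08-fold and 2.06-fold higher late, where the early side is set, array by array, at the dimmest signal that still counted as above background, or at the probe's own if that was higher. The vomeronasal receptors Vmn1r195 (1.29 ± 0.25, 7.86e-03) and Vmn2r4 (0.96 ± 0.21, 0.013) had mean levels below -3 in both arms. So had the germline genes Tnp1 (1.27 ± 0.24, 6.04e-03), Rhox1 (1.198 ± 0.23, 7.48e-03) and Rhox2e (1.15 ± 0.19, 3.08e-03), and Tm4sf4 (1.21 ± 0.33, 0.036) and Glipr1l3 (1.02 ± 0.22, 0.014). With normexp background correction the differences of these dim genes shrank, to 0.63 for Fbxw13, 0.50 for Zfp112, 0.52 for Spaar, 0.39 for Vmn1r56, 0.57 for Vmn1r195 and 0.42 for Tnp1, and all but Fbxw13 of these 6 lost the call. With slide as a fixed block Fbxw13 reversed (-0.91). Dnase1l2, a DNase, was brighter and gave -1.29, -0.92 and -1.32 at 1 h, -1.46, -1.07 and -1.70 at 1.5 h, 0.13 and -0.04 at 18 h and -0.61 and -0.57 at 24 h, with the arms apart (1.02 ± 0.18, 2.03-fold, adjusted p = 4.48e-03, and 0.044 with slide as a random block). Fcor, a regulator of FOXO1 (1.26 ± 0.24, 5.57e-03), and Card14, an NF-kB scaffold (0.96 ± 0.16, 2.77e-03), also passed with the random block.

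Among the other large falls were Vmn1r240 (-1.90 ± 0.45, adjusted p = 0.022), Hdx (-1.36 ± 0.29, 0.013), Cldn20, a claudin of tight junctions (-1.35 ± 0.19, 8.95e-04), Igsf9b, an inhibitory synapse adhesion protein with 1 of 3 probes in the other direction (-1.32 ± 0.23, 4.20e-03), and Ccny, a cyclin (-1.26 ± 0.32, 0.027). Further ones were Ash1l, a histone methyltransferase (-1.25 ± 0.26, 0.011), Gpc6, a glypican (-1.18 ± 0.31, 0.034), and Srsf11, a splicing factor (-1.14 ± 0.28, 0.024). Ash1l showed the uneven shape of Hmgb1: it averaged 0.96 early, -0.72 at 18 h and 0.15 at 24 h, and was -0.10 at 4 h, on the slide of the 18 h mice. Srsf11 averaged 3.05 early, 1.66 at 18 h, 2.17 at 24 h and 2.11 at 4 h. With slide as a random block neither passed (adjusted p = 0.12 for Ash1l and 0.17 for Srsf11). Nor did Vmn1r240 (0.19), Hdx (0.13), Igsf9b (0.054), Ccny (0.16) or Gpc6 (0.23), while Cldn20 did (9.41e-03). With 1 of the 10 arrays left out in turn, the call was lost in 7 fits for Gpc6, 6 for Ccny and 4 for Srsf11. It was lost in 3 for Vmn1r240 and in 2 each for Hdx and Ash1l. With normexp correction Hdx, Cldn20, Ccny and Gpc6 lost the call. Chosen after their values were seen because they passed with slide as a random block were Tcim (-0.87 ± 0.11, 3.39e-04), and Lgi2, a secreted synaptic protein (-0.75 ± 0.11, 1.35e-03). Chosen in the same way were Macrod2, an ADP-ribose hydrolase with 1 of 5 probes in the other direction (-1.03 ± 0.15, 1.35e-03), Cdkn1c, the cyclin kinase inhibitor p57 (-0.69 ± 0.12, 4.16e-03), Apold1, an endothelial early response gene (-1.20 ± 0.21, 4.16e-03), Sema6a, a guidance cue (-0.89 ± 0.15, 3.94e-03), and Gpatch3 (0.58 ± 0.08, 8.42e-04).

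The mean over the 568 lower genes on each array, each gene centred over all 31 arrays, described the spread by slide. It was 0.15 to 0.49 on the 6 early arrays, -0.76 and -0.65 at 18 h and -0.45 and -0.23 at 24 h, and on slide 4 the serum mice of 4 h lay at -0.08 and -0.10. The mean over the 636 higher genes was -0.50 to -0.39 on the 5 early arrays of slide 1, -0.03 on the early array of slide 2, and 0.31 to 0.50 on the late arrays. Oleic acid mice of 1 h on slide 1 lay at -0.37 to -0.27 and the oleic acid mouse of 1.5 h on slide 2 at 0.13. Over the 568 lower genes the oleic acid mice of 1 h lay at 0.19, 0.42 and -0.45. The last of these, replicate 3, was thus below all late oleic acid mice (-0.38 to -0.25). Its array had the fewest spots well above background of the 31 (54.3%). These genes were chosen on the serum arrays, so the serum values are a description.

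**Figure D4:**
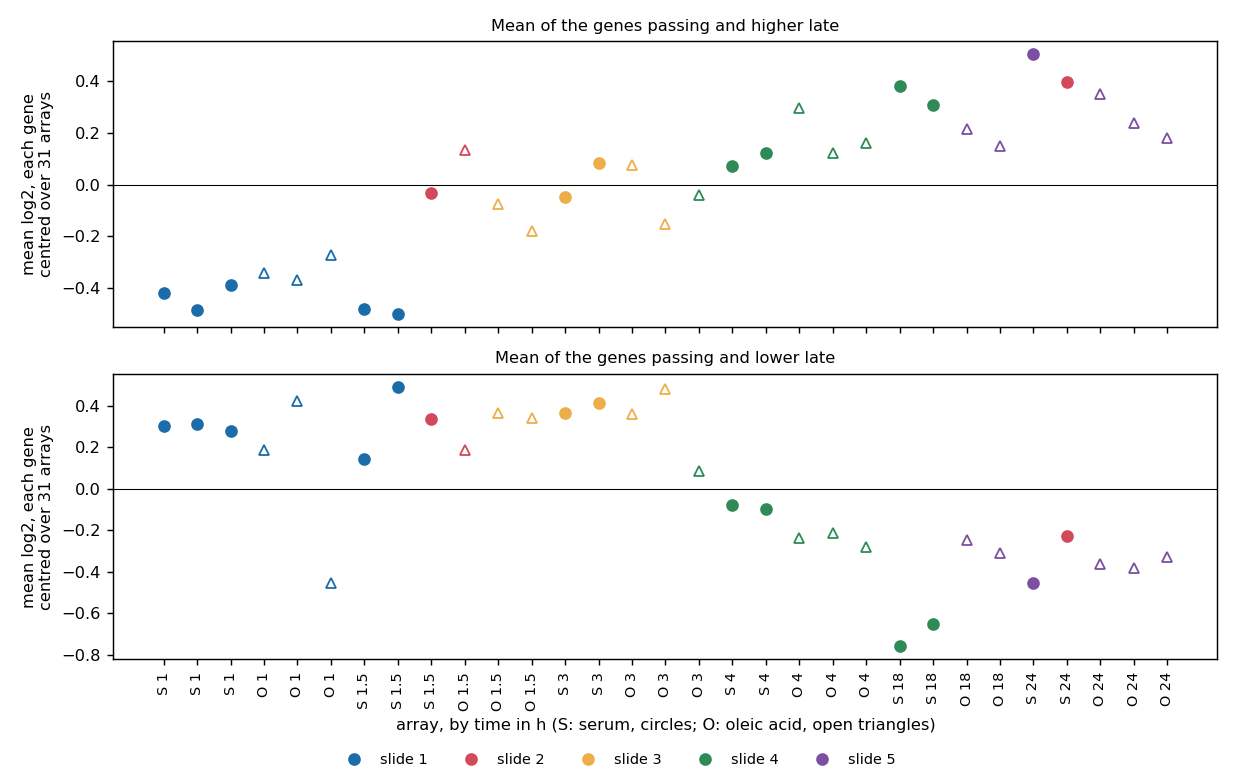
Mean of the 636 genes that passed as higher late (top) and of the 568 that passed as lower (bottom) on each of the 31 arrays, each gene centred over all arrays (log2), ordered by time and coloured by slide, with circles for serum and open triangles for oleic acid mice. The arrays of slide 1 are lowest in the top panel, in both treatments, and the serum mice of 18 h are lowest in the bottom panel.

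The same comparison in oleic acid mice, 5 late against 6 early arrays of other animals, shares no array with the serum one but shares slides with it. Its late arrays were all on slide 5, and of its early arrays 3 were on slide 1, 1 on slide 2 and 2 on slide 3. No slide held oleic acid mice of both arms, so slide and time cannot be told apart in this comparison. There 170 genes passed (0.675%), 82 higher (0.326%) and 88 lower (0.35%). Random and fixed blocks for slide left 1 and 0, and 14 and 25, and single arrays left out gave from 13 and 9 (without oleic acid 18 h replicate 2) to 174 and 565 (without oleic acid 1 h replicate 3). Of the 636 serum genes higher late, 614 (96.5%) were above 0 in oleic acid mice, where 51.7% of all genes were, and of the 568 lower ones 550 (96.8%) were below 0, where 48.3% of all genes were. The median differences in oleic acid mice were 0.33 and -0.40, against 0.63 and -0.73 in serum mice. The serum and oleic acid tests came from the same fit and share each gene's estimate of the spread, so their calls are not independent. Both tests were passed in the same direction by 114 genes, 67.1% of the oleic acid calls and 9.47% of the serum calls. Of these, Hmgb2 differed by -0.81 ± 0.10 in oleic acid mice (adjusted p = 1.55e-03), Ciart by -1.19 ± 0.18 (3.64e-03) and H1f2 by -0.64 ± 0.09 (1.75e-03). Psip1 differed by -0.46 ± 0.07 (3.76e-03), and Ggcx, the vitamin K-dependent carboxylase, by 0.53 ± 0.08 (3.76e-03; 0.38 ± 0.09 in serum mice). Hmgb2 was 0.13 to 0.49 in the 6 early and -0.66 to -0.32 in the 5 late oleic acid mice, again without overlap, which was the case for 1.87% of all genes there (1.1% with the late mice above and 0.775% below). These 5 did not pass in oleic acid mice with slide as a random block (adjusted p = 0.080 for Hmgb2 and H1f2 to 0.15 for Ggcx). Further genes passing in both without the block were Ccn1 (-1.47 ± 0.25), Hmgb1 (-1.21 ± 0.26), Nell2 (-1.13 ± 0.20), Ptn (-1.06 ± 0.21), Cirbp (-0.41 ± 0.08), Arrdc3 (-0.69 ± 0.16), Creld2 (0.43 ± 0.10), Clk1 (0.69 ± 0.16) and Dnase1l2 (1.12 ± 0.17), each with its oleic acid difference in brackets. The oleic acid arms of Hmgb1 and Ptn overlapped through the early mouse 1 h replicate 3 (2.95 and 4.03). Those of Ciart and Arrdc3 overlapped as well.

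**Figure D5:**
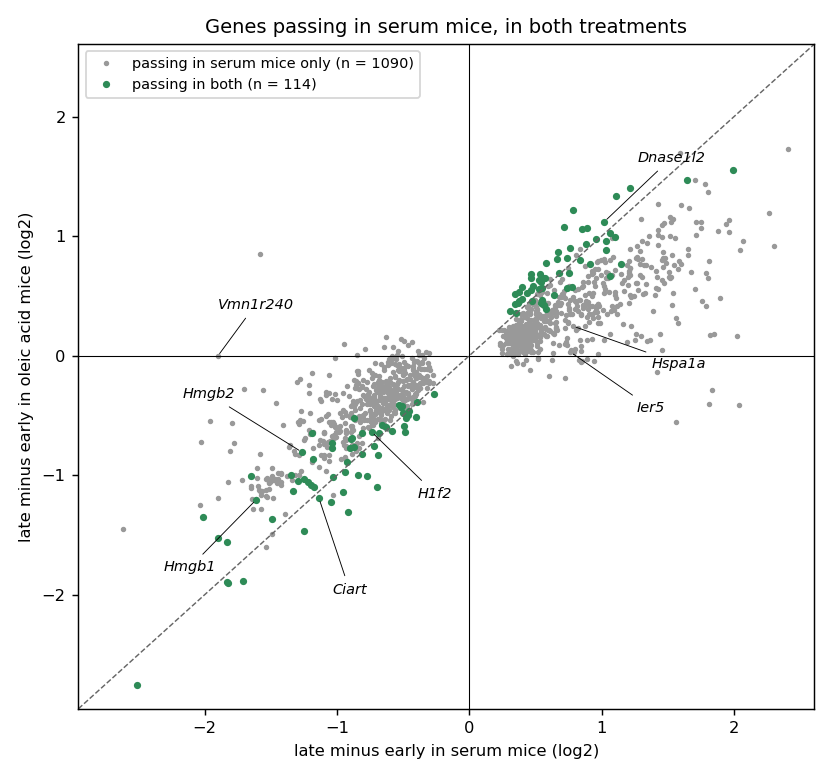
Late minus early difference in oleic acid mice against that in serum mice (both log2) for the 1204 genes that passed in serum mice, with the 114 that passed in both in green and the line of equal change dashed. The genes higher in serum mice have a median of 0.33 on the oleic acid axis, the lower ones -0.40, and Ier5 lies close to 0 there.

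No gene passed the test of the difference itself, serum late minus early against oleic acid late minus early (0 of 25173 in limma, 0%; 1057, or 4.2%, had an unadjusted p under 0.05). A fixed block for slide gave 28 genes, and 12 passed without serum 24 h replicate 2. There were 9 without that array and serum 1 h replicate 1, and 1 without any one of serum 18 h replicate 1, serum 18 h replicate 2 and serum 24 h replicate 1. The 5 with the smallest unadjusted p, none of which passed in the fit without a block, were Cyp4b1 (-2.43 ± 0.57), Rint1 (-0.50 ± 0.12), Cpeb2 (-0.61 ± 0.15), Abca9 (0.57 ± 0.15) and Zfp518a (-0.67 ± 0.18), all with an adjusted p of 0.85. Genes that passed in serum mice and lay near 0 in oleic acid mice, such as Ier5 (0.03 ± 0.18), Aqp4 (-0.13 ± 0.23) and Ltf (0.13 ± 0.34), did not pass this test in the fit of all 31 arrays without a block. Nor did Hspa1a, which was higher late in oleic acid mice by less than in serum mice (0.25 ± 0.13) and did not pass there.

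Between serum mice of 24 h and 18 h, 2 against 2, 877 genes passed (3.48%), 517 higher (2.05%) and 360 lower (1.43%) at 24 h, but with any 1 of these 4 arrays left out at most 73 passed as higher and 43 as lower, and none passed with slide as a fixed or random block or without the filter on dim probes. Both 18 h mice lay on slide 4, and of the 24 h mice 1 lay on slide 5 and 1 on slide 2. No slide held serum mice of both times, so time and slide cannot be told apart among these 4 mice. The 5 with the smallest p were H4c8, a replication-dependent histone H4 gene with near-identical copies (1.26 ± 0.21, adjusted p = 0.028), Cyfip1, a regulator of actin (-0.80 ± 0.14, 0.028), and Dusp13, a dual-specificity phosphatase (-1.95 ± 0.35, 0.030). The others were Scaper, a cyclin A-binding protein (0.61 ± 0.11, 0.030), and Soga3 (-0.63 ± 0.12, 0.035). Of the genes that passed late against early, 15 of the 636 and 16 of the 568 also differed between 24 h and 18 h. The median 24 h minus 18 h difference was -0.89 over the neutrophil list and -0.39 over the unfolded protein response list, against -0.02 over all genes tested, while Hmgb2 (-0.23), Ciart (-0.26) and Cirbp (0.01) were close at both times. Npas4 (-0.90 ± 0.32, adjusted p = 0.088), Ltf (-1.94 ± 0.55, 0.050) and Creld2 (-0.51 ± 0.16, 0.064) did not pass this test.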

How the data were processed

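Whole-brain RNA of 31 mice was hybridised to 1-colour Agilent arrays. Spot intensity values and flags were deposited by the authors as scanner output (Agilent Feature Extraction, version 10.5.1.1 per the submitters' processing notes), with background subtracted within each array and no normalization between arrays. The log2 value table, also deposited by the authors, was used as an alternative. Probe positions are those of mm9, per the file headers.

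Each array's log2 processed signal was reduced by its 75th percentile. Control spots and non-uniform outliers were left out. A probe was kept where at least 1 of the 12 groups had it well above background throughout (35653 of 55681), of which 35499 were measured on all 31 arrays, and the brightest probe of each gene gave 25173 genes. Accessions named 26582 probes and symbols or synonyms 3094, and 26005 kept the name in the file. limma 3.58.1 (R 4.3.3) fitted 12 group means with 19 residual degrees of freedom, and p-values were adjusted by Benjamini-Hochberg over all genes, and scripts were tested on simulated data. The late arm is the mean of its 2 times and the early arm likewise. Each mouse is 1 array, and the labels do not name separate cohorts or days.

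The number of arrays limits the precision. In the late serum arrays 56.3% to 67.0% of spots were well above background and in the early ones 61.7% to 63.3%. Alternatives were other scalings, normexp correction with an offset of 50, filters, probe means, sample subsets, slide, scan date and replicate blocks, array weights and arrays left out. Keeping probes with missing spots was an alternative chosen after seeing the data. The same replicate number in the 1 h and 1.5 h groups gave correlations of deviations of -0.22, 0.08 and 0.01, so the numbers were not taken as pairs.

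Members, lists and the panel of 35 genes were chosen with earlier results of these data known. Named genes are the 15 largest rises and 15 largest falls among passing genes with a gene symbol, non-overlapping arms and signal above background throughout 1 arm, up to 4 passing members of each of 41 lists by p, the panel, and the 5 smallest p of each other comparison. Genes outside this rule are said to be so, and the results of 2 genes that the rule names are not reported here. Of the panel, 12 further genes did not pass, with differences from -1.17 to 1.05 and adjusted p from 0.27 to 0.96. Promoter windows are those of RefSeq (GRCm38.p6).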

Additional observations from a re-analysis of the deposited data

Results flagged for a closer look

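In 11 of 196 arms of genes named above, 1 mouse lay far from the others of its arm by Dixon's gap criterion, which chance meets in about 1 in 20 arms, or 9.8 of 196. In the early arm, serum 1.5 h replicate 1 was low for Jun (3.37) and for Lgi2 (1.103), and serum 1 h replicate 3 was high for Dbp (5.22). Serum 1 h replicate 1 was low for Tm4sf4 (-7.10) and serum 1.5 h replicate 3 was high for Rhox2e (-4.33). In the late arm, serum 18 h replicate 1 was high for Arc (5.43) and serum 18 h replicate 2 for S1pr1 (1.65), a receptor for sphingosine phosphate chosen after its values were seen. Serum 24 h replicate 1 was high for Rhox2e (-3.25). Serum 24 h replicate 2, the late mouse on slide 2, stood apart in 3 genes: it was high for Ccl2 (-3.76) and Gabra2 (0.44) and low for Doc2g (-0.50).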

How the results depend on the processing

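Counts are given as higher and lower. For serum late against early (636 and 568), scaling to the median gave 359 higher, normexp correction 381, a 1.5-fold minimum 334 and the 14 serum arrays alone 339. No filter gave 383 and 344, the 10 serum arrays alone 161 and 311, and slide as a fixed block 0 and 17. Slide as a random block gave 26 and 38, arrayWeights 3781 and 2322, and both arrays that stand apart left out 319 and 284. Taking 1 h alone as early gave 256 and 186, 1.5 h alone 156 and 159, and 24 h alone as late 346 lower. Single arrays left out gave 99 to 1356 and 111 to 629. For oleic acid mice (82 and 88), median scaling gave 41 higher, a 1.5-fold minimum 52 higher, and normexp 153 lower. The values deposited by the authors gave 215 and 181, no filter 41 and 51, slide fixed 14 and 25, slide random 1 and 0, scan date 291 and 151 and arrayWeights 2090 and 1906, with 13 to 174 and 9 to 565 over single arrays left out. For the difference between treatments (0), keeping missing spots gave 1, slide fixed 28, both arrays left out 9, and single arrays left out 0 to 12. For 24 h against 18 h (517 and 360), median scaling gave 277 and 1258, quantile normalization 126 and 169, and normexp 165 and 219. Probe means gave 221 lower, the 14 serum arrays 0 and 1, arrayWeights 2183 and 1466, both arrays left out 69 and 37, and no filter, slide fixed, slide random and scan date 0 and 0 each, with 4 to 73 and 2 to 43 over single arrays left out. The replicate block gave 856 and 843 in serum mice, 80 and 111 in oleic acid mice, 0 for the difference and 428 and 376 for 24 h against 18 h. Of 82 passing named genes, 28 kept the call without each of the 10 arrays in turn, 18 kept it with slide as a random block and none with slide fixed, where Fbxw13 reversed (-0.91). Genes that did not pass also changed sign: Egr1 with slide fixed (-0.28), 24 h alone (-0.013) and 1.5 h alone (-0.048), Hspa5 with slide fixed (-0.0018) and 24 h alone (-0.12), Il1b with normexp (0.11) and 18 h alone (0.20), Rbm3 with probe means (0.16) and 18 h alone (0.0057), and Fos (0.043) and Per1 (0.028) with 18 h alone. The causes of these shifts were not tested.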
